A study of Homo sapiens with 2 samples.

Results

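The BCL2 family, the caspases and the inhibitors of apoptosis were followed through 37 genes, taken by gene symbol from the 20289 genes of the deposited table: pro-survival BCL2 members, the atypical member BCL2L12, effectors, BH3-only genes, caspases, apoptosome and mitochondrial release factors, IAPs, death receptor adaptors and the DNA fragmentation factor. Poly(A) RNA was from MDA-MB-231, an established line of human triple-negative breast cancer. One library was from cells given an siRNA against USP30-AS1 (19569214 counts, called the knockdown library) and 1 from cells that received the negative control siRNA (23287817 counts). The sources used here do not give the siRNA sequences, the time after transfection or the number of cultures behind a library. The level of USP30-AS1 was not analysed here, and how far it was silenced is therefore unknown.

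Apoptosis through mitochondria is decided by the BCL2 family. Pro-survival members hold the effectors BAX and BAK1 in check, BH3-only proteins relieve that hold or activate the effectors, and active effectors open the outer mitochondrial membrane. Cytochrome c then assembles with APAF1 and caspase-9 into the apoptosome, death receptors reach the same executioner caspases through FADD and caspase-8, and inhibitor of apoptosis proteins (IAPs) restrain caspases or the complexes that activate them. USP30-AS1 is a long non-coding RNA that lies antisense to USP30, whose product removes ubiquitin from proteins of the mitochondrial surface.

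With 1 library per group, no difference below has a replicate check, there is no test between the groups, and each value describes these libraries only. Counts were scaled by library total and TMM (trimmed mean of M values). Folds are given with 95% exact counting intervals, which cover counting error only and treat PCR copies as separate molecules. The log2 ratio of a gene sets its CPM (counts divided by the scaled library total) plus 0.5 in the knockdown library over the same in the control library. Ratios were formed for the 11530 genes with a mean of at least 50 counts, and a gene was called higher or lower at 1.5-fold (log2 0.58). The line's mesenchymal markers were all detected, with summed levels of 3354 CPM in the knockdown library and 2351 CPM in the control library. Among them VIM held most of the sum, CD44 was 2.55-fold higher and ZEB1 1.38-fold lower, and CDH2 had 1 counts in the knockdown library and 5 in the control library. The receptor and luminal markers summed to 8.94 CPM in the knockdown library and 11.1 CPM in the control library, with PGR at 0 in both. Of 4 leukocyte markers, CD68 held nearly all of 60.3 CPM in the knockdown library and 44.8 CPM in the control library, and CD3E was at 0. Fibroblast markers summed to 27.8 CPM in the knockdown library and 34.8 CPM in the control library, with DCN and LUM at 0. COL1A1 among them was 1.54-fold higher and PDGFRB 1.65-fold lower. Endothelial markers summed to 7.07 CPM in the knockdown library and 13.4 CPM in the control library. PECAM1 among them was 1.43-fold lower. CDH5, just under the floor for comparison, had 8 counts in the knockdown library and 91 in the control library. The part of any of these in the results was not tested.

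Of the 37 genes, 32 were compared. Of these, 6 (MCL1, BCL2L1, BAK1, APAF1, XIAP and BIRC3) were at least 1.5-fold higher in the knockdown library (18.8% of the 32), where 6.1% of all compared genes were. BAD and BCL2L2 were at least 1.5-fold lower (6.25%), where 7.04% of all compared genes were. None of the 32 reached 2-fold, which 3.16% of all compared genes did in either direction. The median log2 ratio of the 32 was 0.04, against -0.00 over all compared genes, and 17 of them (53.1%) lay above 0, against 49.6% of all. The higher genes therefore hold both death-promoting members, BAK1 and APAF1, and members that oppose death, MCL1, BCL2L1, XIAP and BIRC3. The lower pair holds 1 gene of each kind, since BAD promotes death and BCL2L2 opposes it.

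The counting intervals of 22 of the 32 folds left out equal levels, 14 on the higher side and 8 on the lower side. The same count was not made over all compared genes, so it cannot be read as particular to these genes. Among the 6 called higher, the interval lay wholly above 1.5-fold for MCL1 and BAK1. For the other 4, and for BAD and BCL2L2, it reached below 1.5-fold. Another 6 genes, outside the call, had intervals that reached 1.5-fold. The nearest inside the threshold was BCL2L1, at 1.52-fold higher, and the nearest outside it were CASP4 and ENDOG, each 1.48-fold lower.

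**Figure D1:**
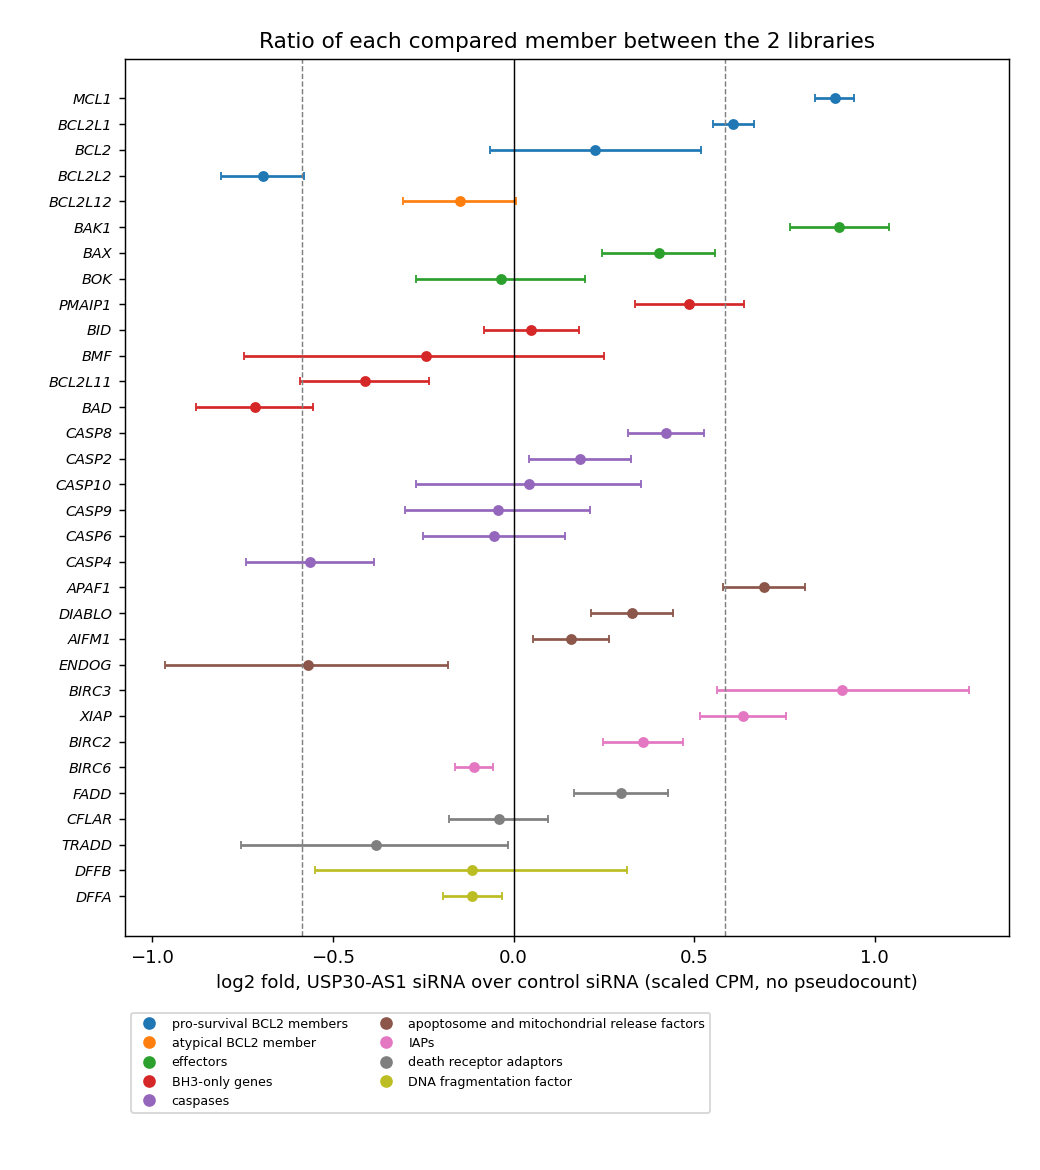
Log2 fold of each of the 32 compared genes, knockdown over control library (horizontal axis, from scaled CPM with no pseudocount), with 95% exact counting intervals and colours for the 9 classes; dashed lines mark 1.5-fold. MCL1, BAK1 and BIRC3 lie farthest to the right (1.85-fold to 1.88-fold higher), and BAD and BCL2L2 farthest to the left (1.64-fold and 1.62-fold lower).

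Several of the called genes carry, in the 3′ UTR of their mRNA, 1 of 2 pairs of words of 7 bases that an earlier search of these same libraries had picked out. The low word (AACTCCA or ACTCCAA) marks genes with a median log2 ratio of -0.17 where it occurs alone, and the high word (CCTAAGA or CTAAGAA) marks genes with a median of 0.08. The high word median includes genes that hold both words, and such genes are grouped with the high word in the ratios below. Since the words were chosen on these libraries, their carriers' ratios are a description and no independent support. A selection of the sites, 25 bases each, in the called carriers and in the lower BH3-only gene BCL2L11 is shown from GRCh38, on the mRNA strand and 5′ to 3′, with the word in capitals. MCL1, XIAP and BCL2L11 hold further sites that are not printed.
BAK1, chr6:33573314-33573338, minus strand: gatcagcacCCTAAGAgatgggact
BCL2L1, chr20:31665442-31665466, minus strand: tccctacccCCTAAGAgccatttag
MCL1, chr1:150576959-150576983, minus strand: agagaagcaCTAAGAAtgccagtga
MCL1, chr1:150577289-150577313, minus strand: tgcagttggACTCCAAgctgtaact
APAF1, chr12:98734025-98734049, plus strand: aagatttttCTAAGAAatgtgaaat
XIAP, chrX:123907404-123907428, plus strand: aaccatagaCTAAGAAtaagaagca
XIAP, chrX:123909813-123909837, plus strand: tcactcagcACTCCAActtctaatc
BAD, chr11:64270174-64270198, minus strand: acatcccgaAACTCCAcccgttccc
BCL2L11, chr2:111164970-111164994, plus strand: ttgtgatgcAACTCCAgtctggact

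Of the 6 higher genes, 5 carry the high word (BAK1, MCL1, BCL2L1, APAF1 and XIAP), and MCL1 and XIAP carry the low word as well. The remaining one, BIRC3, carries neither. The high word is carried by 9 compared genes in all. Of these, 5 (55.6%) were called higher, where 12.6% of the 2367 compared carriers in the whole table were, and 0 were called lower, where 5.15% were. The other 4 are BCL2, BMF, CASP10 and CFLAR, with log2 ratios from -0.21 (BMF) to 0.22 (BCL2). The 4 genes with the low word alone, BAD, BCL2L11, DFFA and TRADD, all lay below 0 (-0.71 to -0.11), as did 1048 of 1522 such genes in the table. Of the 4, 1 was called lower, where 15.2% of such genes were, and 0 were called higher, where 2.76% were. Of the 19 compared genes with neither word, 1 was called higher (5.26%) and 1 lower (5.26%), where 4.64% and 5.94% of 7523 such genes in the table were.

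Carriage itself was near the level of the table. The high word was present in 28.1% of the 32 genes and 20.7% of all compared genes, and the low word in 21.9% and 20.8%. By median, carriers have longer 3′ UTRs. The medians were 3897 bases for the 9 high word genes, 2474 bases for the 4 low word genes and 1117 bases for the 19 with neither. Over all compared genes these medians were 3226, 2365 and 982 bases. The 4 low word genes were split, with 379 bases for BAD and 469 for TRADD, against 4480 for BCL2L11 and 4968 for DFFA. CFLAR, whose annotated 3′ UTRs are the longest of the 37 genes (12714 bases), holds both words and had a log2 ratio of -0.04.

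**Figure D2:**
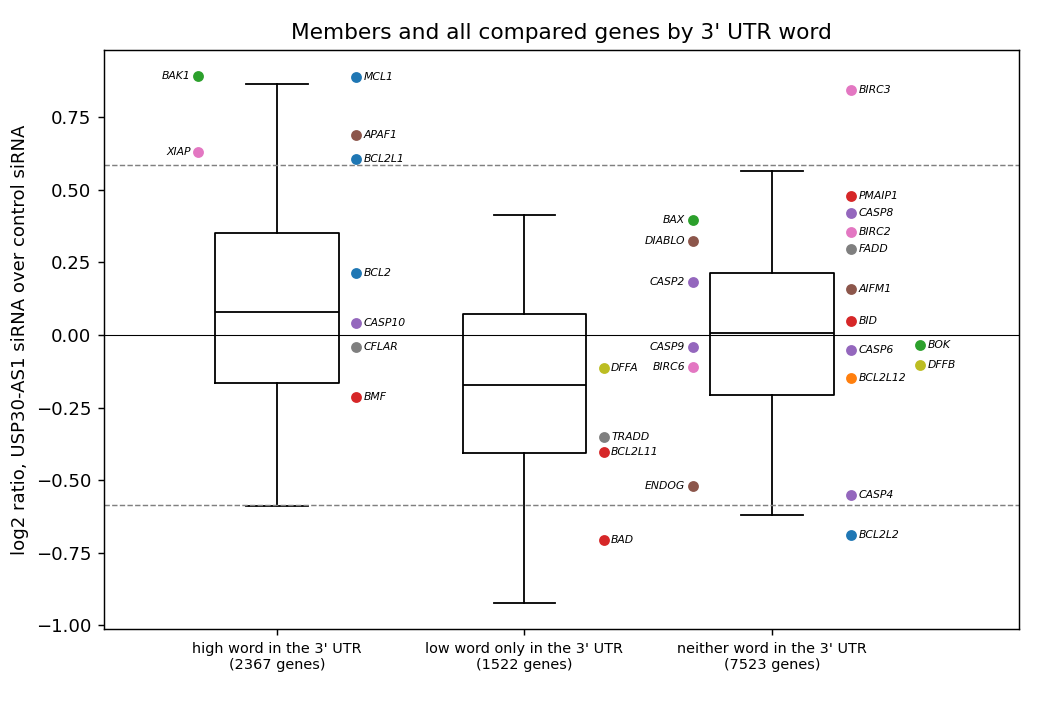
Log2 ratio, knockdown over control library (vertical axis), of the 32 compared genes (labelled points, coloured by class) beside all compared genes (boxes for the quartiles with the median, whiskers from the 5th to the 95th percentile), by the word in the 3′ UTR; dashed lines mark 1.5-fold. Of the 9 genes with the high word, 5 lie above the upper line, and the 4 with the low word alone lie below 0, as do 1048 of all 1522 such genes.

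Among the pro-survival members, the most abundant pair was higher in the knockdown library and BCL2L2 was lower. MCL1, a short-lived guardian that binds BAK1 and several BH3-only proteins, had 6951 counts (92.5 FPKM, the deposited level per transcript length and depth) in the knockdown library, against 4619 counts (51.0 FPKM) in the control library. That was 1.85-fold higher (1.78 to 1.92; log2 ratio 0.89). BCL2L1, which encodes BCL-XL, had 5491 counts (109.7 FPKM) in the knockdown library, against 4433 counts (74.8 FPKM) in the control library, 1.52-fold higher (1.47 to 1.59; log2 ratio 0.61). An antisense gene not analysed here lies opposite 43.0% of the exonic bases of BCL2L1. MCL1 and BCL2L1 had the highest FPKM of the 37 in both libraries.

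BCL2L2, which encodes BCL-W, had 944 counts (14.8 FPKM) in the knockdown library, against 1881 counts (24.9 FPKM) in the control library, 1.62-fold lower (1.496 to 1.75; log2 ratio -0.69). BCL2L2 shares 813 of its 4189 exonic bases (19.4%), on the same strand, with the readthrough gene BCL2L2-PABPN1. BCL2L2-PABPN1 had 505 counts in the knockdown library and 638 in the control library (log2 ratio -0.04). Summed, the pair had 1449 counts in the knockdown library, against 2519 in the control library, 1.41-fold lower (1.32 to 1.51; log2 ratio -0.50), which is short of the 1.5-fold call. Reads in the shared exons cannot be told apart.

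BCL2, the founding member, was low in this line, with 193 counts (1.43 FPKM) in the knockdown library and 203 counts (1.58 FPKM) in the control library. Its scaled fold of 1.17 had an interval (0.956 to 1.43) that includes 1. BCL2A1, a target of NF-κB best known from blood cells, had 0 counts in both, which allows up to 0.156 CPM in the knockdown library and 0.127 CPM in the control library (3 counts). BCL2L12, an atypical member, had 583 counts in the knockdown library and 796 in the control library (log2 ratio -0.15), and 33.1% of its exonic bases lie opposite exons of IRF3.

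Summed over the class, pro-survival transcripts stood at 705.7 CPM in the knockdown library, against 470.2 CPM in the control library, 1.501-fold higher (1.46 to 1.54), and 1.43-fold higher in summed FPKM. The make-up of the class differed as well, as the plot of shares shows. MCL1 held 42.3% of the summed FPKM in the knockdown library, against 33.5% in the control library, while BCL2L1 held 50.2% in the knockdown library and 49.1% in the control library. BCL2L2 held 6.80% in the knockdown library, against 16.3% in the control library. In counts, the share of BCL2L2 was 6.95% (95% Wilson interval 6.54 to 7.39) in the knockdown library, against 16.9% (16.2 to 17.6) in the control library.

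**Figure D3:**
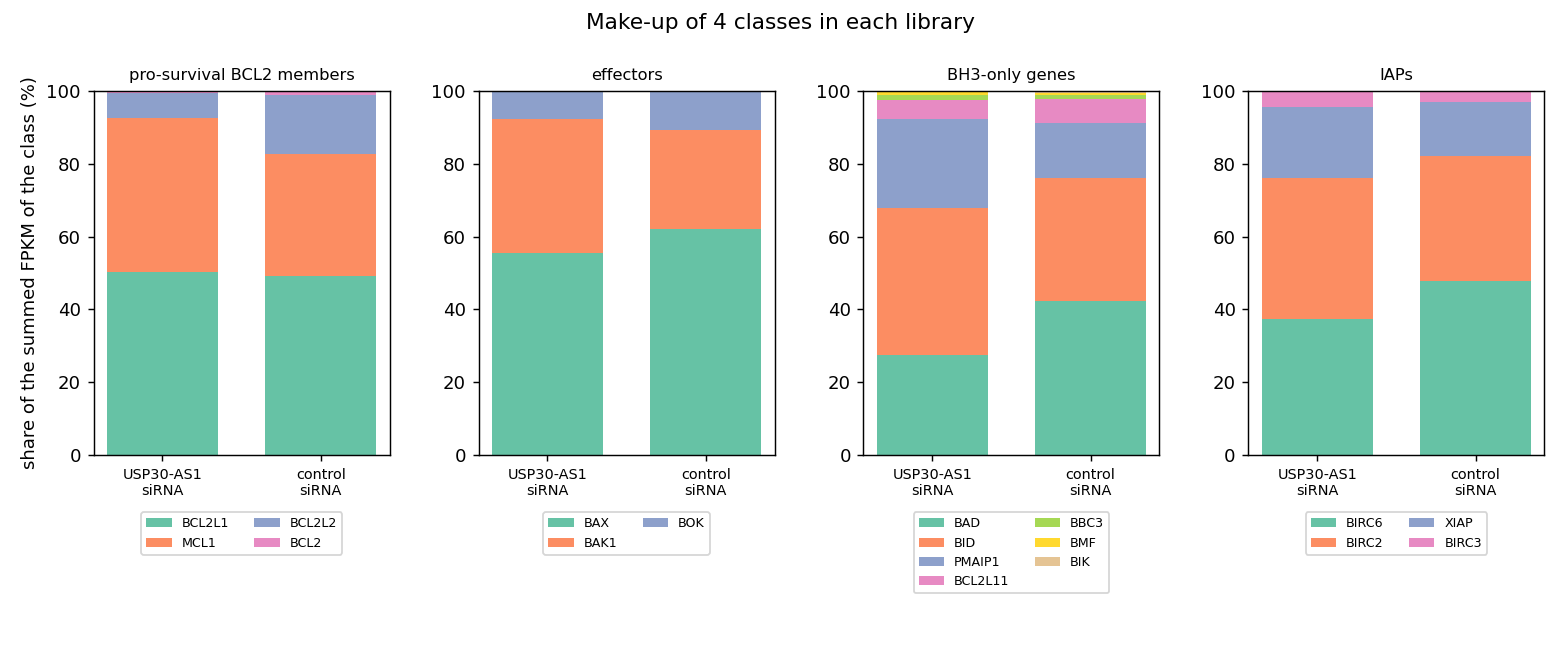
Share of the summed FPKM of 4 classes (vertical axis, percent) that each gene holds in the knockdown library (left bar of a pair) and in the control library (right bar). In the knockdown library the share of BCL2L2 is smaller than in the control library (6.80% against 16.3%), as is that of BAD (27.5% against 42.3%), and those of MCL1, BAK1, PMAIP1 and XIAP are larger.

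Of the 3 effectors, BAK1 was past 1.5-fold higher and BAX was not. BAK1, which sits in the outer mitochondrial membrane, had 1087 counts (25.6 FPKM) in the knockdown library, against 716 counts (14.2 FPKM) in the control library, 1.87-fold higher (1.70 to 2.06; log2 ratio 0.89). BAX, which moves to mitochondria from the cytosol, had 699 counts (38.7 FPKM) in the knockdown library, against 651 counts (32.3 FPKM) in the control library, 1.32-fold higher (1.19 to 1.47). BOK, an effector that is little held by the pro-survival members, had 272 counts in the knockdown library and 343 in the control library, with a fold of 0.976 (0.829 to 1.15). BAK1 held 36.8% of the FPKM of the class in the knockdown library, against 27.2% in the control library, and BAX 55.6% in the knockdown library, against 62.1% in the control library. The class sum in CPM was 1.48-fold higher (1.39 to 1.58).

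The BH3-only genes lay on both sides of equal levels. BAD, which binds BCL2, BCL-XL and BCL-W and is switched off by survival kinases, had 471 counts (25.4 FPKM) in the knockdown library, against 953 counts (43.6 FPKM) in the control library, 1.64-fold lower (1.47 to 1.84; log2 ratio -0.71). By FPKM it was 12th of the 32 compared genes in the knockdown library and 3rd in the control library. Of its 1708 exonic bases, 404 (23.7%) lie opposite exons of GPR137, which had 656 counts in the knockdown library and 705 in the control library (log2 ratio 0.19). The strand setting of the counting was not given, so reads in that stretch cannot be assigned.

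BCL2L11, which encodes BIM, a direct activator of the effectors, was also lower. It had 419 counts (4.77 FPKM) in the knockdown library, against 686 counts (6.79 FPKM) in the control library, 1.33-fold lower (1.18 to 1.51; log2 ratio -0.40). PMAIP1, which encodes NOXA, a partner and antagonist of MCL1, lay on the other side, with 766 counts (22.4 FPKM) in the knockdown library, against 673 counts (15.5 FPKM) in the control library, 1.40-fold higher (1.26 to 1.56; log2 ratio 0.48). BID, which caspase-8 cleaves to link death receptors to mitochondria, had 879 counts in the knockdown library and 1046 in the control library and a fold of 1.03 (0.945 to 1.13).

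The other BH3-only genes were scarce. BMF, tied to the cytoskeleton, had 59 counts in the knockdown library and 86 in the control library and a fold of 0.844 (0.596 to 1.19). BBC3, which encodes PUMA, had 42 counts in each library and BIK 4 in the knockdown library and 10 in the control library, both under the floor for comparison, and HRK had 0 in both. Summed over the class, BH3-only transcripts stood at 137.2 CPM in the knockdown library, against 147.6 CPM in the control library (fold 0.929, 0.883 to 0.978). Of the FPKM of the class, BAD, PMAIP1 and BID held 27.5%, 24.3% and 40.5% in the knockdown library, against 42.3%, 15.02% and 33.8% in the control library.

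**Figure D4:**
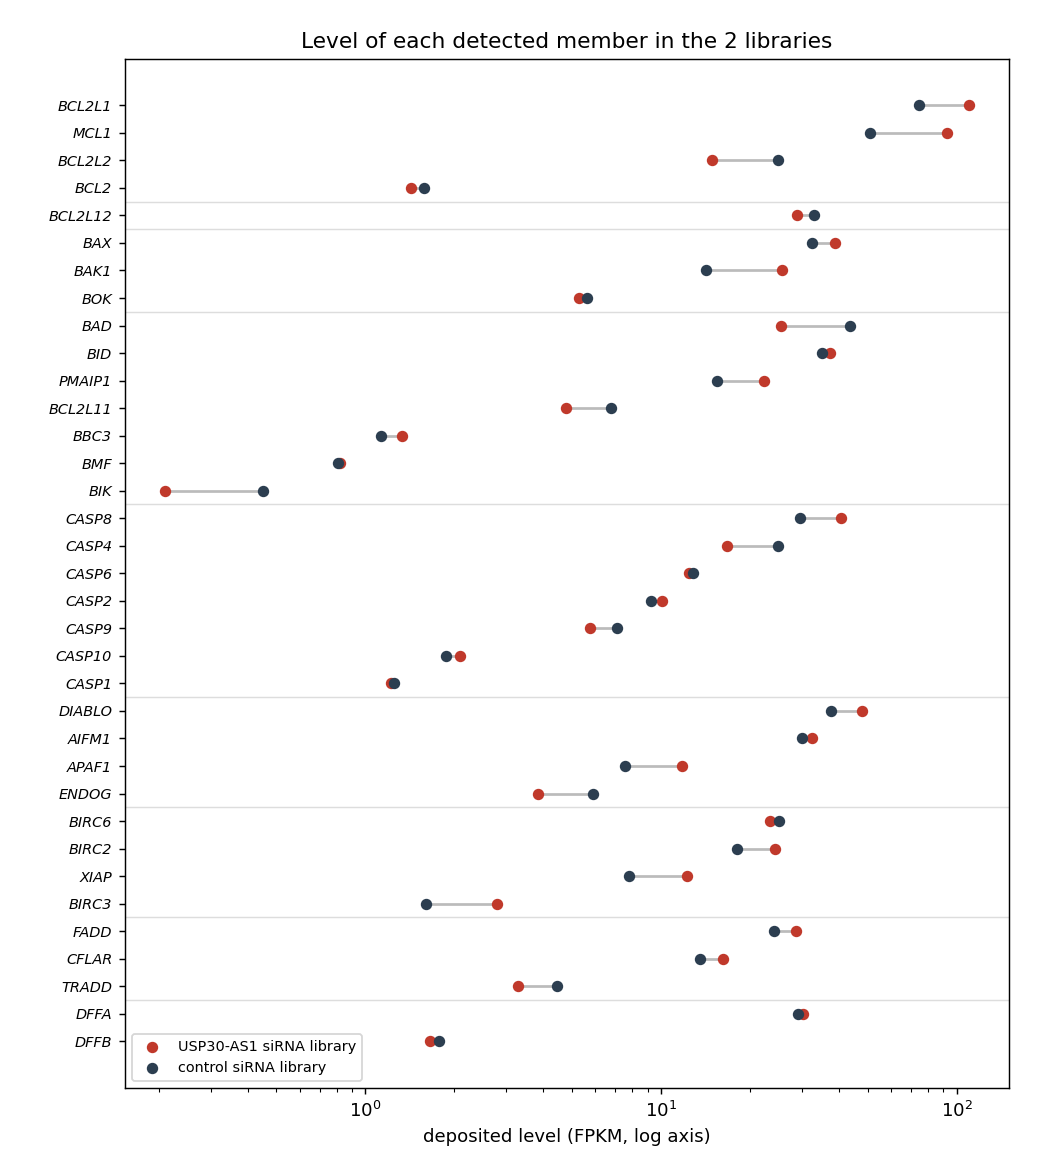
Deposited level of the 35 genes detected in both libraries (horizontal log axis, FPKM), grouped by class and ordered by the control level, with the knockdown library in red and the control library in dark blue. BCL2L1 and MCL1 lead in both libraries, and BAD and BCL2L2 lie well to the left of their control levels.

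No caspase passed 1.5-fold in either direction, against 13.1% of all compared genes. CASP8, the initiator at death receptors, had 1532 counts (40.7 FPKM) in the knockdown library, against 1407 counts (29.6 FPKM) in the control library, 1.34-fold higher (1.25 to 1.44; log2 ratio 0.42). CASP4, the human sensor of intracellular lipopolysaccharide and no part of classical apoptosis, had 402 counts (16.7 FPKM) in the knockdown library, against 731 counts (24.9 FPKM) in the control library, 1.48-fold lower (1.31 to 1.67; log2 ratio -0.55). CASP2, an initiator activated by the PIDD1 platform, was 1.14-fold higher (1.03 to 1.25). The folds of CASP6, an executioner, CASP9, the apoptosome's initiator, and CASP10, a relative of CASP8, lay between 0.964 and 1.03, with intervals that include 1. CASP1, which matures interleukin-1β, had 35 counts in the knockdown library and 41 in the control library and was not compared. CFLAR, CASP10 and CASP8 are neighbours on chromosome 2 (201116104 to 201287711), with log2 ratios of -0.04, 0.04 and 0.42 in that order.

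In the apoptosome and among the factors released from mitochondria, APAF1 was higher. APAF1, the scaffold that cytochrome c opens, had 1477 counts (11.8 FPKM) in the knockdown library, against 1124 counts (7.57 FPKM) in the control library, 1.62-fold higher (1.496 to 1.75; log2 ratio 0.69). Of the 7908 exonic bases of APAF1, 750 (9.48%) lie opposite exons of ANKS1B, whose level is not given here. DIABLO, which encodes SMAC, an antagonist of IAPs, had 1275 counts in the knockdown library and 1250 in the control library, 1.26-fold higher (1.16 to 1.36). Of its exonic bases, 29.6% are shared on the same strand with a second annotated gene of the same name and 16.8% with the gene AC048338.1, and 14.3% lie opposite exons of B3GNT4, so its reads cannot be assigned with certainty. AIFM1, a mitochondrial flavoprotein linked to caspase-independent death, was 1.12-fold higher (1.04 to 1.20). ENDOG, a mitochondrial nuclease, had 86 counts in the knockdown library and 157 in the control library, 1.48-fold lower (1.13 to 1.95). Of its exonic bases, 39.2% lie opposite exons of SPOUT1, whose log2 ratio was -0.22.

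Of the 4 IAP genes in this set, 3 lay above 0 in log2 ratio, against 49.6% of all compared genes. At least 1.5-fold higher were 2 of them, against 6.1% of all. The IAP genes BIRC5 and NAIP, outside the set, were not higher. BIRC5 had 1996 counts in the knockdown library and 2458 in the control library (log2 ratio -0.00). NAIP had 233 counts in the knockdown library and 375 in the control library, 1.31-fold lower (1.11 to 1.55). XIAP, the direct inhibitor of caspases, had 1290 counts (12.2 FPKM) in the knockdown library, against 1022 counts (7.78 FPKM) in the control library, 1.55-fold higher (1.43 to 1.69; log2 ratio 0.63). BIRC3, which encodes cIAP2, a ubiquitin ligase of TNF receptor signalling and a target of NF-κB, had 177 counts (2.78 FPKM) in the knockdown library, against 116 counts (1.60 FPKM) in the control library, 1.88-fold higher (1.48 to 2.39; log2 ratio 0.85). It is the called gene with the fewest counts, and without it 5 genes were at least 1.5-fold higher. BIRC2, its close relative and neighbour on chromosome 11, had 1365 counts in the knockdown library and 1310 in the control library, 1.28-fold higher (1.19 to 1.38).

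BIRC6, a giant ubiquitin ligase that restrains apoptosis, had the most counts of the class, 5262 in the knockdown library and 6990 in the control library, with a fold of 0.927 (0.894 to 0.961). Because of its weight, the class sum in CPM was 1.06-fold higher (1.03 to 1.09), while the summed FPKM, in which its length is divided out, was 1.19-fold higher. XIAP held 19.5% of the FPKM of the class in the knockdown library, against 14.8% in the control library, and BIRC6 37.3% in the knockdown library, against 47.7% in the control library.

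The adaptors of death receptors and the DNA fragmentation factor stayed within 1.5-fold. FADD, the adaptor that recruits caspase-8, was 1.23-fold higher (1.12 to 1.35). An antisense gene not analysed here lies opposite 54.9% of its exonic bases. TRADD, the adaptor of TNF receptor 1, had 101 counts in the knockdown library and 162 in the control library, 1.303-fold lower (1.01 to 1.69). CFLAR, which encodes FLIP, the catalytically dead relative of caspase-8, had 783 counts in the knockdown library and 992 in the control library, with a fold of 0.972 (0.884 to 1.07). DFFA, the inhibitor and chaperone of the apoptotic nuclease, and DFFB, the nuclease, had folds of 0.924 (0.873 to 0.978) and 0.923 (0.683 to 1.24).

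Counts and FPKM gave different signs for BCL2, BMF, CFLAR and DFFA, whose log2 ratios on both scales lay between -0.21 and 0.25. The log2 ratio of BCL2 was 0.22 in counts and -0.14 in FPKM, and that of CFLAR was -0.04 and 0.25. CASP9 kept its sign, at -0.04 and -0.31. For these genes and for BMF and DFFA, the ratio of effective lengths implied by counts and FPKM in the 2 libraries lay outside the 5th to 95th percentile of all compared genes (0.864 to 1.11). For the 8 called genes it lay inside.

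**Figure D5:**
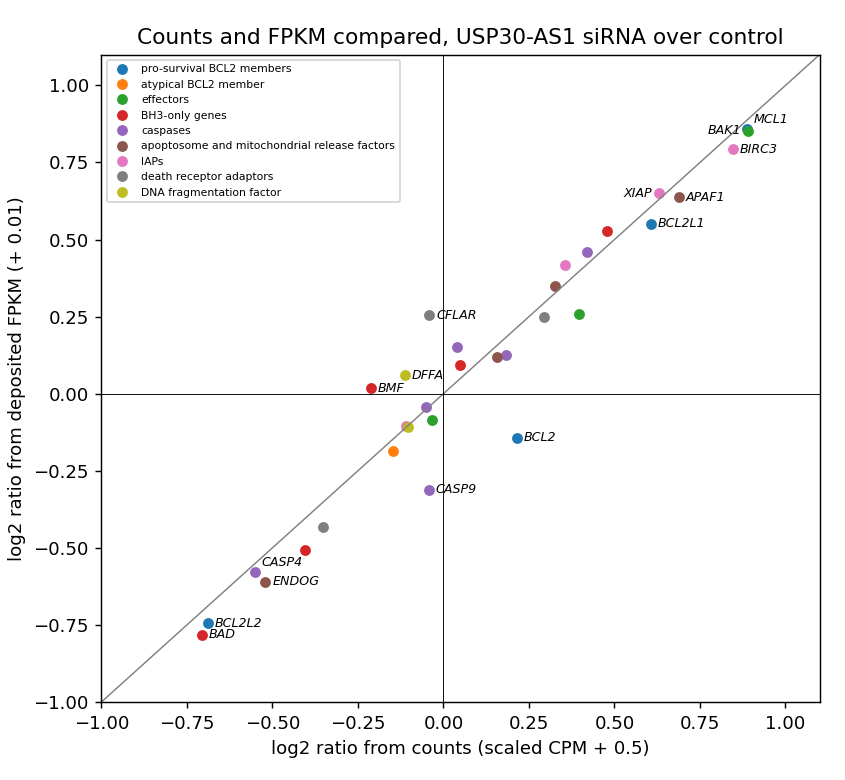
Log2 ratio from scaled counts (horizontal axis) against log2 ratio from the deposited FPKM (vertical axis) for the 32 compared genes, coloured by class; the diagonal marks equal values. The 8 called genes lie near the diagonal, and BCL2, CFLAR and CASP9 lie farthest from it.

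Promoters from RefSeq (GRCh38.p14, 250 bases before to 50 after the start) were available for 27 of the 32 compared genes and 9376 compared genes in all. They are shown for BIRC3, the higher gene that carries neither word, and for BCL2L11, with matches on either strand to a motif of a factor known as background for each (NF-κB and forkhead factors) in capitals.
BIRC3, chr11:102317234-102317533, plus strand: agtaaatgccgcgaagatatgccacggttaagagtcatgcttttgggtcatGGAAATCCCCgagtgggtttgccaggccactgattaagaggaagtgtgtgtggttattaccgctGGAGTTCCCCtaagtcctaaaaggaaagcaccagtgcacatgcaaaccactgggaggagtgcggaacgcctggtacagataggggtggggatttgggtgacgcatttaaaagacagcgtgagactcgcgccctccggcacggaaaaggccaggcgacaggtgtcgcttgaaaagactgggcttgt
BCL2L11, chr2:111120664-111120963, plus strand: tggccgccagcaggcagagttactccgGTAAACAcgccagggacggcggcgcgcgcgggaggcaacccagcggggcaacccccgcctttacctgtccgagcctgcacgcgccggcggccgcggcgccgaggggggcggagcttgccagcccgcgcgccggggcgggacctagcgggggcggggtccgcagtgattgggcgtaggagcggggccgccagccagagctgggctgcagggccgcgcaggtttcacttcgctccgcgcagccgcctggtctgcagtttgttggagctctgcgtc

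Counted over the first listed start of each gene, the κB consensus matched 4 of the 27 promoters (14.8%; BIRC3, BIRC6, BMF and CFLAR) and 13% of all, and BIRC3 held 2 matches. A second listed start of CASP2 also held 1. The forkhead motif GTAAACA matched BCL2L11 alone (3.7%), against 2.25% of all. Both motifs were picked from a larger scan, whose other matches, in these and other members, are not reported here. The factors themselves were compared: NFKB1 and RELA had log2 ratios of 0.02 and -0.00, FOXO1 -0.46 and FOXO3 -0.55. A match describes letters in this window and is neither a bound site nor a cause.

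A further 71 genes around the same machinery were taken from 6 lists, and 54 were compared. Of these, 7 were at least 1.5-fold higher (13.0%), against 6.1% of all compared genes, and 1 was at least 1.5-fold lower (1.85%), against 7.04%. TMBIM6, which encodes BAX inhibitor 1 of the endoplasmic reticulum membrane, had 16284 counts in the knockdown library, against 8496 in the control library, 2.36-fold higher. Its 3′ UTR holds both words. FAS, a death receptor, had 94 counts in the knockdown library and 49 in the control library, also 2.36-fold higher (1.65 to 3.41). MLKL, the pore former of necroptosis, had a log2 ratio of 0.79, BNIP3, a receptor for mitophagy, 0.70, and DUSP6, a phosphatase of ERK, 0.64. In deposited FPKM the log2 ratio of MLKL was 0.55, short of 1.5-fold. BNIP3L, also called higher in counts (0.66), fell short as well at 0.57. FAS, BNIP3 and DUSP6 stayed past it, at 0.83, 0.75 and 0.63. The 3′ UTRs of FAS, BNIP3 and DUSP6 hold neither word, and that of MLKL holds the low word alone. That of BNIP3L holds the high word alone, as does that of TNFRSF10A, the remaining gene called higher (log2 ratio 0.66 in counts).

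CYCS, which encodes cytochrome c, was the gene at least 1.5-fold lower. Its 3′ UTR holds the low word alone. CYCS had 1785 counts in the knockdown library, against 3652 in the control library, 1.66-fold lower (log2 ratio -0.73). Among the transcripts of apoptosome parts, APAF1 was therefore higher and CYCS lower. CASP9 was near equal in counts (log2 ratio -0.04) and at -0.31 in FPKM. Protein was not measured here. HTRA2, a protease released from mitochondria that antagonises IAPs, had a log2 ratio of 0.46, and UBE2C, a ubiquitin-conjugating enzyme of mitosis, 0.43. The medians of the 6 lists lay between -0.12, for transcription factors of BH3-only genes, and 0.24, for death receptors and necroptosis.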

How the data were processed

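Poly(A) RNA-seq of 2 libraries was analysed, 1 for each siRNA. Per the submitters' processing notes, the tools were RSEM, HISAT2, StringTie 1.3.1 and fastp 0.18.0, with GRCh38. The deposited values are estimated counts (expected counts) per gene that the authors made without normalization, with 11.4% (knockdown) and 12% (control) of values not whole, and were rounded here. The deposited FPKM values were normalized by the authors for length and depth, per the file headers. The log2 fold changes, p-values and FDR in the authors' deposited table come from an unstated test without replicates. Of the 37 genes, 21 have an FDR under 0.05 in the authors' deposited table, and 0 of these pass 2-fold there. The share of all genes under that FDR was not taken, so the count cannot be read as particular to the 37. These calls were not used. The table's title names both siRNAs, its column Si-NC is the control, and the column left over, Si-179, was taken as the knockdown library. The meaning of 179 is not stated.

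Library totals were scaled by TMM factors of 0.983 (knockdown) and 1.017 (control) from edgeR 4.0.16 in R 4.3.3. DESeq2 1.42.0 gave the alternative size factors. Fold intervals are exact (Clopper-Pearson) and share intervals are Wilson, at 95%. Positions, overlaps and 3′ UTRs came from GENCODE release 29 (GRCh38), and a gene carries a word if any of its annotated 3′ UTRs does. Python 3.11.15 was used, and the steps were tested on simulated data. All 37 genes were accounted for, and up to 2 genes of each further list, those with the largest ratios, were named by rule, some of which are not reported here. GPR137, SPOUT1, BCL2L2-PABPN1, BIRC5, NAIP, BNIP3L, TNFRSF10A and the factors beside the promoters were named in addition, after values were seen. The genes, lists and words were chosen with earlier results of these data known.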

Additional observations from a re-analysis of the deposited data

How the results depend on the processing

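Leaving out carriers of either 3′ UTR word left 1 gene past 1.5-fold on the higher side (BIRC3) and 1 on the lower side (BCL2L2); the pro-survival median became -0.69 (BCL2L2 alone) and the BH3-only median 0.26. In deposited FPKM with a pseudocount of 0.01 or 0.1 the pro-survival median was 0.20 or 0.21 and the BH3-only median 0.017 or 0.016, since BCL2 and BMF changed sign. Summing BCL2L2 with BCL2L2-PABPN1, chosen after seeing the data, left 1 gene lower (BAD). Under the 13 alternatives (11 of them planned), 95 values of counts and medians stayed within 1.5 times for a count and 0.2 (log2) for a median. MCL1, BAK1, BAD, APAF1 and BIRC3 stayed past 1.5-fold in each alternative that gave them a value. BCL2L1 fell short with scaling by library total only and in FPKM, and XIAP with library total only, under which CASP4 passed, as ENDOG did in FPKM. Leaving out BIRC3, also chosen after seeing the data, left 5 genes higher. No paired analysis was possible because each group has 1 library. Depth limits BCL2A1, HRK, BIK, BBC3 and CASP1, which lay under 50 mean counts.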
